A study of Canis lupus familiaris with 29 samples.

Results

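The 4 libraries described here follow MDCKII cells with a knockdown (KD) of AVL9 from seeding to day 4 as a monolayer on transwell inserts. They are 4 of 29 RNA-seq libraries of MDCKII, a dog kidney epithelial cell line. They were chosen by their labels: AVL9-KD line 1 and AVL9-KD line 4, each at day 0 (the cells used for seeding) and at 2D day 4 (over-confluent on inserts), with the days paired by line number. The genes described are the 10967 of 24223 with at least 1 FPKM (fragments normalized to transcript length and library size) in at least 2 of these 4 libraries. The courses used for comparison, from day 0 to 2D day 4, are those of wild-type MDCKII cells (4 and 3 libraries) and of MDCKII cells with a knockdown of DENND5A (lines 1 and 2, 1 library of each line a day). All were grown in the same medium with fetal bovine serum. What the line numbers stand for (clones, hairpins, guides) is not given in the labels, nor is the knockdown method. A control line that had gone through the same procedure was not among the libraries used. The labels do not say either whether libraries came from separate cultures, so the p-values reflect only the variation among these libraries, part of which could be technical.

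AVL9 is a protein with a DENN domain, a fold found in proteins that load Rab GTPases with GTP and so direct vesicle traffic, and it was named after a yeast gene of late secretory transport. DENND5A belongs to the same family. MDCKII cells grown on a permeable support form a sheet in which tight junctions separate an apical from a basolateral surface. Dense sheets of kidney epithelium are known to stop dividing, to grow a primary cilium on the apical side and to take on the ion transporters of the nephron. The question addressed is what the transcriptome of AVL9-KD cells did over these days, and where its course departed from those of the other cells.

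Total FPKM lay between 333626 and 372103 in the 4 libraries, within the range of all 29, and 10257 to 10903 genes reached 1 FPKM. Read depth is unknown, since the files give FPKM without counts. Of 8 epithelial markers, 6 were found by their own symbol (CDH1, EPCAM, KRT19, CLDN4, CDH16 and PAX8), and all 6 reached 1 FPKM in at least 2 of the 4 libraries. Of 10 fibroblast markers in the files only FBLN1 reached it, and PDGFRB, THY1, POSTN and FAP were listed at 0 in all 4. Summed fibroblast marker levels were 9.59 and 15.6 FPKM at day 0 and 3.99 and 2.34 FPKM at day 4. Of 8 endothelial markers only FLT1 reached 1 FPKM. No leukocyte marker did, with PTPRC and CD3E listed at 0. Among the wild-type libraries a set of 5, which includes replicate 1 at day 0 and replicate 1 at 2D day 4, stood apart from the others in earlier results of these data, and the main counts that rest on wild type are also given without it.

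AVL9 itself (ENSCAFG00000003143) was low in all 4 libraries labelled as its knockdown. It read 7.21 and 5.7 FPKM at day 0 and 6.35 and 3.89 FPKM at day 4 in lines 1 and 4. The wild-type libraries read 23.7, 23.6, 22.2 and 22.6 FPKM at day 0 and 22.1, 25.1 and 17.9 FPKM at day 4, so every AVL9-KD library lay below every wild-type library. The log2 difference from wild type was -1.70 ± 0.12 (SE) at day 0 and -1.91 ± 0.13 at day 4, with adjusted p = 1.32e-08 and 1.42e-08 (limma with Benjamini-Hochberg adjustment over all genes tested, as throughout). All log2 values are on the log2(FPKM + 1) scale, which understates the change of genes with low FPKM, and ± is the standard error unless stated. Within the knockdown, line 4 was below line 1 on both days, and the day 4 to day 0 difference of -0.31 ± 0.14 did not pass the test (adjusted p = 0.0653). It passed under 4 alternative settings, among them both other scalings of the libraries (-0.49 with adjusted p = 0.000501 and -0.33 with adjusted p = 0.00707).

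Most of the measured genes moved between day 0 and day 4. Of 10967 genes, 6408 passed the test (58.4%), 3621 of them higher at day 4 (33%) and 2787 lower (25.4%). A list of genes therefore has to be read against these shares. The balance depended on the scaling and the filter: 3239 were higher and 3346 lower under quantile normalization, where the median over all genes was -0.01, and 2500 were higher and 2497 lower with a filter at 5 FPKM. When either library of line 4 was left out, 2732 were higher and 1640 lower. The change was at least 1 log2 unit for 1380 of the higher and 853 of the lower genes, and the median over all genes tested was 0.08 without further scaling. Fewer cells of a type and less RNA per cell cannot be told apart in such bulk libraries. Fitted on the 4 AVL9-KD libraries alone, 5527 genes passed.

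Both lines took the same course for most genes. Day 4 minus day 0 had the same sign in lines 1 and 4 for 9392 genes (85.6%), and for 99.7% of those that passed the test. The test is on the mean of these same 2 changes, so the second share is high by selection. The 2 day 0 values and the 2 day 4 values did not overlap for 8067 genes (73.6%). Across genes, which are not independent replicates, the differences of the 2 lines correlated with Pearson r = 0.857. Line 4 moved further than line 1 in 61.8% of the genes that passed with the same sign, and in 71.5% of those that fell, where the median change was -0.68 in line 1 and -0.84 in line 4. Among genes that rose, line 4 moved further in 54.4%, with medians of 0.83 and 0.86. Over all genes tested the median change was 0.11 in line 1 and 0.05 in line 4, a shift that bears on these shares. The lines were not compared under the other scalings. Each line has 1 library a day, so that the lines were compared without a test.

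**Figure D1:**
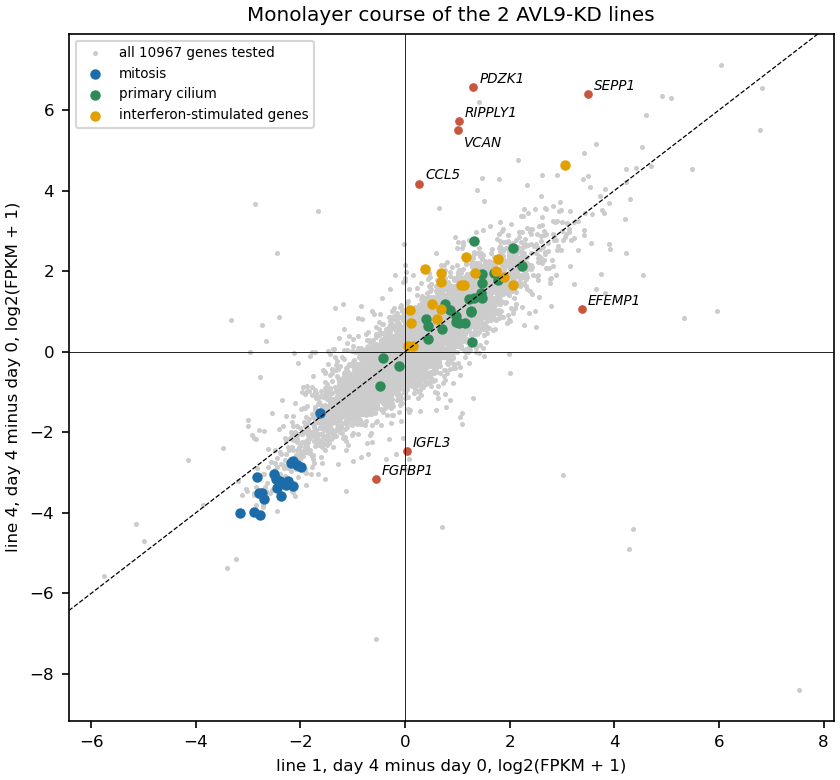
Day 4 minus day 0 in AVL9-KD line 1 (x axis) and line 4 (y axis), in log2(FPKM + 1), each point 1 of the 10967 genes tested; the dashed line marks equal changes. Genes of the mitosis list (blue) lie lower left, 19 of 20 with a larger fall in line 4. Genes of the primary cilium list (green) and interferon-stimulated genes (orange) lie mostly upper right. The named red points are some of the genes selected for the widest gap between the 2 lines, and not all of the widest are named.

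Of the genes named for the largest rises, the first 3 code for 2 matrix proteins and a cadherin. COL18A1, the chain of the basement membrane collagen XVIII, read 0.256 and 0.57 FPKM at day 0 and 41.3 and 123 FPKM at day 4 in lines 1 and 4, a log2 fold change of 5.69 ± 0.40, adjusted p = 3.68e-09. PODN, a small leucine-rich matrix proteoglycan, read 0.0618 and 0.0455 FPKM at day 0 and 31 and 83.8 FPKM at day 4 (5.63 ± 0.42, adjusted p = 6.82e-09). CDH16, the kidney-specific cadherin of tubule epithelium, read 0.0345 and 0.0451 FPKM at day 0 and 24.2 and 60.8 FPKM at day 4 (5.25 ± 0.35, adjusted p = 2.3e-09). In these 3 genes both day 0 libraries were under 1 FPKM, both day 4 libraries were above 20 FPKM, and line 4 was the higher at day 4.

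CLDN2, a claudin that makes tight junctions permeable to cations, was listed at 0 in line 1 and read 0.054 FPKM in line 4 at day 0, against 22.1 and 34.7 FPKM at day 4 (4.81 ± 0.34, adjusted p = 4.33e-09). EGF, the growth factor that the distal tubule makes, read 1.09 and 1.64 FPKM at day 0 and 38.2 and 60.3 FPKM at day 4 (4.39 ± 0.19, adjusted p = 8.48e-11), the smallest adjusted p among the 28 genes named for the size of their change. CHRM4, a muscarinic acetylcholine receptor, read 1.55 and 2.74 FPKM at day 0 and 46.9 and 69 FPKM at day 4 (4.23 ± 0.37, adjusted p = 3.45e-08). Days without overlap were a condition for the choice of these genes. DHRS3, a retinaldehyde reductase, read 0.176 and 0.38 FPKM at day 0 and 24 and 31.6 FPKM at day 4 (4.49 ± 0.27, adjusted p = 1.35e-09). SNCG, a synuclein, read 1.6 and 0.247 FPKM at day 0 and 31.6 and 43.2 FPKM at day 4 (4.40 ± 0.32, adjusted p = 6.09e-09). PRR15L, CCDC148 and KIAA1755, of which no role is stated here, rose by 5.01 ± 0.28, 4.65 ± 0.32 and 4.05 ± 0.33.

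In 3 of the 14 largest rises the lines stood far apart at day 4. SEPP1, the plasma selenium carrier selenoprotein P, read 0 and 0.0908 FPKM at day 0 and 10.3 and 90.9 FPKM at day 4 (4.94 ± 0.58, adjusted p = 1.13e-06). FXYD2, the gamma subunit that tunes the sodium pump, read 0 and 1.16 FPKM at day 0 and 9.7 and 64.6 FPKM at day 4 (4.17 ± 0.53, adjusted p = 2.91e-06). PDZK1, an apical scaffold for transporters, was listed at 0 in both day 0 libraries and read 1.46 FPKM in line 1 and 94.3 FPKM in line 4 at day 4 (adjusted p = 0.0004). The PDZK1 call was lost when either library of line 4 was left out. In each of the 3, line 1 rose far less than line 4.

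**Figure D2:**
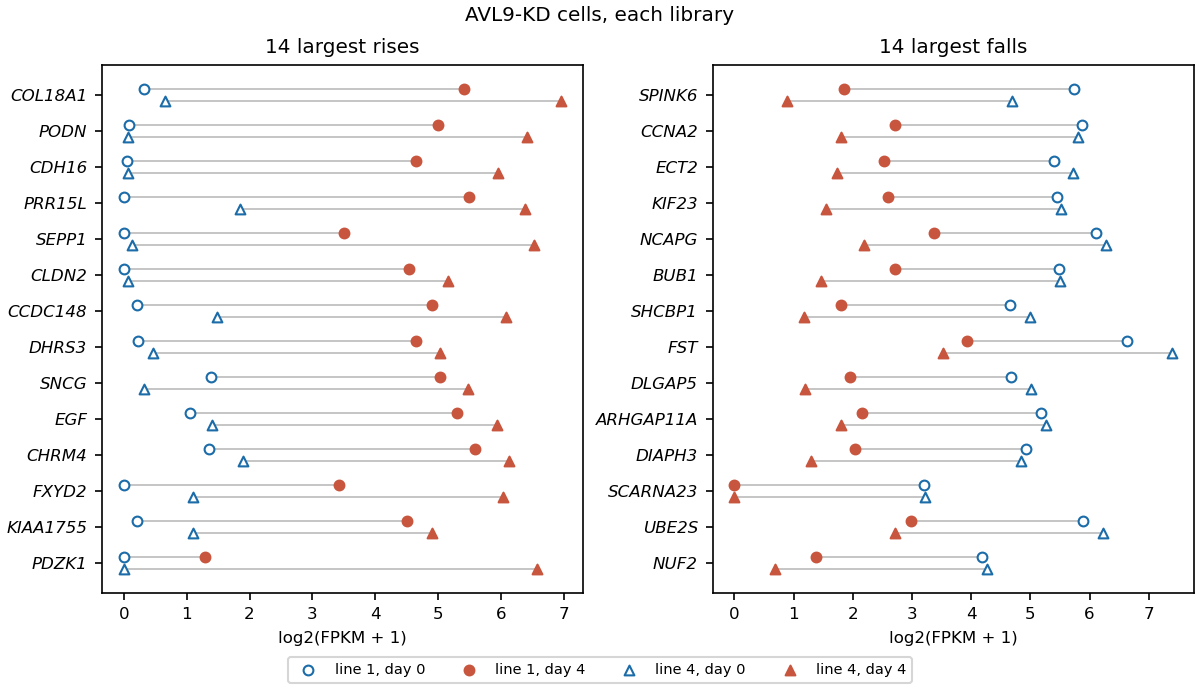
Level in each AVL9-KD library, in log2(FPKM + 1) on the x axis, of the 14 genes with the largest rises (left) and the 14 with the largest falls (right) from day 0 (open) to day 4 (filled); circles are line 1, triangles line 4, and grey lines join the days of a line. The 28 genes were chosen to have no overlap between the days, and line 4 ends lower than line 1 in 13 of the 14 falls, SCARNA23 being listed at 0 in both.

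Transport genes of the distal nephron rose together. Of 26 genes listed, 11 passed the filter on low values, and of these 10 rose and 0 fell (median 1.38). SLC12A2, the basolateral sodium-potassium-chloride cotransporter, read 37.4 and 28.7 FPKM at day 0 and 177 and 168 FPKM at day 4 (2.36 ± 0.21, adjusted p = 3.44e-08). KCNJ16, a basolateral potassium channel subunit, read 0.502 and 0.135 FPKM at day 0 and 8.14 and 15.7 FPKM at day 4 (3.24 ± 0.33, adjusted p = 2.29e-07). SLC12A2 was close in the 2 lines on each day, and the days did not overlap in either gene. The carbonic anhydrase CA2 (1.94) and the epithelial sodium channel subunits SCNN1A (1.16) and SCNN1B (1.38) rose as well. SLC4A2, an anion exchanger, did not pass (-0.30).

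Of 23 organic solute and proximal tubule transporters only 6 passed the filter, with 3 higher, 1 lower and a median of 0.64. ABCC2, an apical export pump for conjugates, read 2.23 and 2.55 FPKM at day 0 and 27.7 and 14.4 FPKM at day 4 (2.64 ± 0.33, adjusted p = 2.44e-06). SLC22A2, an organic cation transporter, was listed at 0 in both day 0 libraries and read 1.79 and 7.08 FPKM at day 4 (adjusted p = 3.87e-05). ABCC4, another export pump, fell (-0.67 ± 0.17). Of 10 intercalated cell markers only ATP6V1B1, a proton pump subunit, passed the filter, and it rose (1.14 ± 0.17), while FOXI1, SLC4A1, ATP6V0D2, ATP6V1G3, ATP6V0A4 and CLNK were listed at 0 in all 4 libraries.

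Transcription factors of kidney and epithelial identity moved mostly upward: 12 of the 16 that passed the filter rose and 3 fell, with a median of 0.76. PAX8, a paired-box factor of the nephron, read 19.5 and 20.1 FPKM at day 0 and 51.5 and 72.1 FPKM at day 4 (1.58 ± 0.16, adjusted p = 2.01e-07). The 2 lines were close at day 0, and line 4 was the higher at day 4. EHF, an epithelial ETS factor, rose by 1.09 ± 0.14, and EMX2, a homeobox factor of the ureteric bud, rose from 0.0675 and 0 to 1.62 and 1.09 FPKM (1.18 ± 0.20). The 3 that fell were OVOL2 (-0.69), LHX1 (-0.57) and GRHL1 (-0.42), which were named after their values were seen.

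The primary cilium is an antenna built by intraflagellar transport (IFT) and the BBSome complex. Of 27 cilium genes, 23 rose and 2 fell, with a median of 0.98 (1.23 in line 1 and 1.02 in line 4). BBS4, a BBSome subunit, read 3.04 and 2.18 FPKM at day 0 and 12.2 and 11.3 FPKM at day 4 (1.83 ± 0.12, adjusted p = 2.34e-09). IFT122, of the retrograde transport complex, read 1.72 and 2.29 FPKM at day 0 and 8.37 and 10.4 FPKM at day 4 (1.79 ± 0.13, adjusted p = 5.86e-09). These levels were low in absolute terms, and the 2 lines were close to each other on both days. PKHD1 and PKD2, which are mutated in polycystic kidney disease, rose by 2.03 ± 0.24 and 1.69 ± 0.15. IFT20 was among those that fell (-0.66).

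Lysosomal genes rose in 15 of 19 cases and fell in 0, with a median of 0.97. TFEB, the factor that drives lysosomal gene transcription, read 1.09 and 1.41 FPKM at day 0 and 4.04 and 4.67 FPKM at day 4 (1.25 ± 0.14, adjusted p = 7.1e-07). The glycosidase GAA rose by 1.45 ± 0.18, and the lysosomal calcium channel MCOLN1 by 1.39 ± 0.17. The 2 lines had nearly the same TFEB level on each day.

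Junction and polarity genes, in contrast to the transporters, gave counts nearer to those of all genes. Of 16 tight junction genes 7 rose and 2 fell (median 0.28). TJP3, a scaffold of the ZO family, read 4.5 and 4.17 FPKM at day 0 and 14.3 and 14.5 FPKM at day 4 (1.53 ± 0.12, adjusted p = 8.91e-09), with nearly the same level in both lines on each day. CLDN16, a claudin known from the thick ascending limb, read 7.71 and 17 FPKM at day 0 and 41.1 and 75.4 FPKM at day 4 (2.18 ± 0.24, adjusted p = 6.25e-07). CGN, which links junctions to RhoA signalling, rose by 0.61 ± 0.13, while CLDN1 and CLDN7 fell by 0.58 and 0.62 on the log2 scale. OCLN (0.01) and TJP1 (0.00) had values near 0 and did not pass.

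Of 15 adherens junction and desmosome genes 6 rose and 3 fell (median 0.13). CTNNB1, beta-catenin, read 193 and 146 FPKM at day 0 and 394 and 362 FPKM at day 4 (1.17 ± 0.16, adjusted p = 5.07e-06), and its 2 day 4 values were both above 360 FPKM. CDH1, E-cadherin, did not pass (0.13). The desmosomal plakophilins moved in opposite directions, PKP2 rising by 0.67 ± 0.14 and PKP3 changing by -0.73 ± 0.14. Of 13 polarity complex genes 3 rose and 3 fell, with a median of 0.02 that was below 0 under both other scalings (-0.03 and -0.01). INADL, the Crumbs complex scaffold PATJ, read 15.9 and 20.5 FPKM at day 0 and 44.2 and 58.4 FPKM at day 4 (1.44 ± 0.15, adjusted p = 3.97e-07). MPP5, its partner PALS1, rose by 0.56 ± 0.12, PARD6B by 0.59 ± 0.17, and DLG1 of the basolateral Scribble complex fell (-0.37 ± 0.10).

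Of 10 apical membrane genes 5 rose and 1 fell, with a median of 0.58, and under quantile normalization 8 rose. PODXL, the negatively charged apical sialomucin, read 28.2 and 64.3 FPKM at day 0 and 81.8 and 133 FPKM at day 4 (1.27 ± 0.21, adjusted p = 3.94e-05). MUC1, a membrane mucin, rose by 1.03 ± 0.19, and EZR, which ties the apical membrane to actin, by 0.69 ± 0.13. DPP4, an apical peptidase, fell (-0.83 ± 0.16).

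AVL9 is a trafficking protein, and genes of secretory and apical trafficking were looked at on that account. Of 25, 6 rose and 4 fell, and the median was 0.09, next to 0.08 for all genes. Under quantile normalization 10 rose and 6 fell. SYTL2, a synaptotagmin-like Rab27 effector at the apical membrane, read 1.93 and 0.674 FPKM at day 0 and 12.6 and 10.1 FPKM at day 4 (2.47 ± 0.24, adjusted p = 1.45e-07). The exocyst tethers vesicles to the plasma membrane, and its subunits EXOC4, EXOC7 and EXOC1 rose by 0.94 ± 0.13, 0.85 ± 0.13 and 0.71 ± 0.13. Another subunit, EXOC5, fell (-0.36), as did RAB10 (-0.51), RAB8A (-0.45) and VAMP8 (-0.51).

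Among 20 DENN domain genes 10 rose and 2 fell, with a median of 0.41; under quantile normalization 9 rose and 6 fell. DENND2A read 0.101 and 0.645 FPKM at day 0 and 3.66 and 5.93 FPKM at day 4 (2.08 ± 0.19, adjusted p = 5.58e-08). SBF2, a DENN protein with a phosphatase-like domain, rose by 1.10 ± 0.14, and FNIP2, a folliculin partner, by 0.96 ± 0.16. DENND5A, the gene targeted in the other knockdown, read 8.88 and 7.97 FPKM at day 0 and 13.2 and 13 FPKM at day 4 (0.58 ± 0.15, adjusted p = 0.00281), and its days did not overlap. DENND6A, DENND6B, DENND1A, DENND1B, DENND2D and FNIP1 rose by 0.50 to 0.95. DENND3 and FAM45A fell by 0.42 each. AVL9, SBF1, DENND2C, DENND5B, DENND4A, DENND4B, DENND4C and MADD did not pass, with values from -0.34 to 0.32.

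Basement membrane genes rose in 7 of 13 cases and fell in 0, with a median of 0.54. Beside COL18A1, the laminin chains LAMB3 and LAMB2 rose by 1.38 ± 0.15 and 1.10 ± 0.13 and the heparan sulfate proteoglycan AGRN by 1.75 ± 0.20. Integrin and focal adhesion genes split evenly, 7 of 18 higher and 7 lower. ITGA1, a collagen receptor subunit, read 7.58 and 2.89 FPKM at day 0 and 41.8 and 13.8 FPKM at day 4 (2.12 ± 0.23, adjusted p = 4.78e-07), with line 1 above line 4 on both days. ITGB8, ITGB6 and ITGAV, which form receptors that activate latent TGF-beta, rose by 1.72 ± 0.20, 1.46 ± 0.18 and 1.06 ± 0.14. The laminin receptor subunits ITGA6 and ITGA3 fell by 0.72 and 0.68 on the log2 scale.

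Of 16 actin cytoskeleton genes 3 rose and 7 fell, with a median of -0.58. ACTN1, an actin crosslinker, read 132 and 122 FPKM at day 0 and 59.6 and 53.7 FPKM at day 4 (-1.15 ± 0.16, adjusted p = 1.02e-05), and PFN1, which feeds actin monomers to filaments, changed by -1.36 ± 0.21. Mesenchymal markers fell in 4 of 10 cases and rose in 0 (median -0.93), and under quantile normalization 7 fell. VIM, the intermediate filament vimentin, read 1854 and 2075 FPKM at day 0 and 810.0 and 469 FPKM at day 4 (-1.67 ± 0.23, adjusted p = 5.96e-06). LOX, a collagen crosslinking enzyme, read 99.2 and 96.7 FPKM at day 0 and 7.94 and 17.5 FPKM at day 4 (-2.95 ± 0.38, adjusted p = 3.63e-06). TIMP3, a metalloproteinase inhibitor, changed by -1.71 ± 0.38. The fibroblast marker FBLN1 fell over the same days (-1.70 ± 0.27), as did FLT1, the VEGF receptor on the endothelial list (-0.89 ± 0.14). The fibroblast markers PDGFRB, THY1, POSTN and FAP were listed at 0 throughout. The part of other cells in these falls was not tested.

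Of the gene lists read here, those of cell division had the lowest medians. All 20 mitosis genes and all 22 genes of DNA replication and nucleotide synthesis that were tested fell, with medians of -2.81 and -1.90. CCNA2, the cyclin of S phase and G2, read 57.3 and 54.7 FPKM at day 0 and 5.57 and 2.48 FPKM at day 4 (-3.58 ± 0.31, adjusted p = 3.35e-08). ECT2, the exchange factor that starts cytokinesis, read 41.3 and 51.9 FPKM at day 0 and 4.75 and 2.34 FPKM at day 4 (-3.43 ± 0.28, adjusted p = 1.87e-08). KIF23, a kinesin of the central spindle, read 43 and 44.8 FPKM at day 0 and 5.04 and 1.94 FPKM at day 4 (-3.41 ± 0.24, adjusted p = 3.39e-09). Each started near the same level in both lines and ended lower in line 4.

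PRC1, which bundles spindle microtubules, read 33.5 and 38.3 FPKM at day 0 and 3.98 and 2.46 FPKM at day 4 (-3.15 ± 0.21, adjusted p = 2.58e-09), and CDC20, an activator of the anaphase-promoting complex, read 19.3 and 19.5 FPKM at day 0 and 2.57 and 1.5 FPKM at day 4 (-2.77 ± 0.20, adjusted p = 4.76e-09). KIF11, the motor that separates spindle poles, changed by -2.82 ± 0.21, and TTK, a checkpoint kinase, by -2.44 ± 0.19. The median fall of the mitosis list was 2.43 log2 units in line 1 and 3.26 in line 4, with the larger fall in line 4 for 19 of 20 genes. Of the 14 genes named for the largest falls, CCNA2, ECT2 and BUB1 are on the mitosis list.

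Replication genes fell less. UHRF1, which maintains DNA methylation at forks, read 24.6 and 27.8 FPKM at day 0 and 3.19 and 4.37 FPKM at day 4 (-2.52 ± 0.15, adjusted p = 8.66e-10). MCM5, of the replicative helicase, read 47.1 and 51.8 FPKM at day 0 and 7.82 and 6.25 FPKM at day 4 (-2.66 ± 0.19, adjusted p = 4.49e-09). TK1, the S phase thymidine kinase, read 114 and 94.5 FPKM at day 0 and 19.8 and 9.39 FPKM at day 4 (-2.83 ± 0.20, adjusted p = 4.76e-09). The days were far apart in all 3, and the lines close at day 0. CDC45 showed the largest fall of the list (-3.10 ± 0.24) and RRM2 the smallest (-0.53). Of 9 CDK inhibitors and D cyclins 3 rose and 5 fell. CCNG2, an atypical cyclin of resting cells, rose by 1.88 ± 0.18, RBL2, the p130 pocket protein, by 0.92 ± 0.13 and CDKN1B, p27, by 0.87 ± 0.16. CCND1, cyclin D1, read 65.8 and 58.7 FPKM at day 0 and 16.3 and 21.6 FPKM at day 4 (-1.68 ± 0.24, adjusted p = 8.97e-06). CDKN1A, p21, fell as well (-1.41 ± 0.32).

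Of the 14 genes named for the largest falls, SPINK6 and FST code for secreted factors. SPINK6, a kallikrein inhibitor, read 52.1 and 24.8 FPKM at day 0 and 2.63 and 0.85 FPKM at day 4 (-3.84 ± 0.47, adjusted p = 1.74e-06). FST, follistatin, the activin antagonist, read 98.5 and 167 FPKM at day 0 and 14.1 and 10.5 FPKM at day 4 (-3.29 ± 0.59, adjusted p = 0.000117). Both started high in the seeded cells, SPINK6 higher in line 1 and FST higher in line 4. SCARNA23, a small nuclear RNA gene, was read at 8.18 and 8.27 FPKM at day 0 and listed at 0 in both day 4 libraries (adjusted p = 0.00392), a call lost without line 4.

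Genes of ribosome assembly and of the mitochondrial ribosome fell over the same days. Of 14 ribosome biogenesis genes 12 fell and 0 rose (median -0.996). NCL, nucleolin, read 130.1 and 298 FPKM at day 0 and 53.3 and 110.1 FPKM at day 4 (-1.35 ± 0.14, adjusted p = 3.12e-07), with line 4 above line 1 on both days. The box C/D ribonucleoprotein genes NOP56 and NOP58 and the RNA polymerase I subunit POLR1B changed by -1.50 ± 0.17, -1.34 ± 0.18 and -1.21 ± 0.16. Mitochondrial ribosomal protein genes fell in 12 of 14 cases (median -0.63), among them MRPS35 (-0.82 ± 0.15). Cytosolic ribosomal protein genes showed no such fall: 1 of 8 rose, 0 fell and the median was 0.20, and under quantile normalization 5 rose. Nuclear genes of the respiratory chain fell in 5 of 12 cases, or 8 under median-ratio scaling (median -0.38), CYC1 of complex III the most (-1.24 ± 0.19).

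Of 18 cholesterol synthesis genes 12 fell and 2 rose. The median was -0.84, and it was -0.29 in line 1 against -1.29 in line 4. IDI1, an isomerase of the mevalonate pathway, read 99.2 and 192 FPKM at day 0 and 30.7 and 22.7 FPKM at day 4 (-2.35 ± 0.33, adjusted p = 9.13e-06). Line 4 began with about 2 times as much IDI1 as line 1 and ended below it. The fatty acid synthesis genes FASN and ACLY changed by -1.26 ± 0.21 and -1.51 ± 0.26, but the list of 13 fatty acid genes as a whole held 3 higher and 4 lower, with a median of -0.05 that was 0.07 under quantile normalization.

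Of 11 glycolysis and hypoxia genes 4 rose and 3 fell, and isoforms of 1 enzyme went opposite ways. PFKP, the platelet isoform of phosphofructokinase, read 113 and 134 FPKM at day 0 and 40.1 and 34.8 FPKM at day 4 (-1.70 ± 0.17, adjusted p = 1.65e-07), while PFKL, the liver isoform, read 17.7 and 24 FPKM at day 0 and 67.8 and 109 FPKM at day 4 (2.01 ± 0.23, adjusted p = 8.32e-07). The 2 isoforms had changed places by day 4 in line 1 and in line 4. HK2, a hexokinase, fell (-1.33 ± 0.32). BNIP3, a mitophagy receptor induced by low oxygen, rose by 2.12 ± 0.35, and GPI, glucose phosphate isomerase, by 1.25 ± 0.23. In the list of TXNIP and the alpha-arrestins 4 of 5 rose and 1 fell. TXNIP, which restrains glucose uptake, read 43.9 and 30.2 FPKM at day 0 and 504 and 645 FPKM at day 4 (3.93 ± 0.28, adjusted p = 3.82e-09), and its relatives ARRDC3, ARRDC2 and ARRDC4 rose by 2.26 ± 0.16, 1.59 ± 0.23 and 1.06 ± 0.19.

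Targets of NRF2 fell more often than they rose. Of 14 targets of the antioxidant factor NRF2 (with CYP1 genes) 10 fell and 1 rose, with a median of -1.58. TXNRD1, thioredoxin reductase, read 108 and 57.7 FPKM at day 0 and 24 and 12.9 FPKM at day 4 (-2.10 ± 0.16, adjusted p = 7.67e-09). GCLM, of glutathione synthesis, read 146 and 131 FPKM at day 0 and 37.9 and 35.6 FPKM at day 4 (-1.89 ± 0.20, adjusted p = 2.86e-07). PIR and PTGR1 changed by -2.91 ± 0.34 and -2.75 ± 0.40. The days did not overlap in TXNRD1 and GCLM. ABCC1 was the member that rose (0.74).

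Of 15 endoplasmic reticulum chaperone genes 12 fell and 3 rose (median -0.58). CRELD2, a secreted stress-induced chaperone, read 32.5 and 35 FPKM at day 0 and 7.36 and 4.67 FPKM at day 4 (-2.33 ± 0.19, adjusted p = 1.82e-08), and HSP90B1, the luminal HSP90, changed by -1.09 ± 0.17. The 3 that rose were HERPUD1 (2.01 ± 0.17) and SEL1L (0.93 ± 0.14), both of the degradation branch, and DNAJB9 (0.60). Of 10 heat shock genes 1 rose and 2 fell. HSPB1, a small heat shock protein, read 38.8 and 17.3 FPKM at day 0 and 119 and 85.8 FPKM at day 4 (1.92 ± 0.31, adjusted p = 4.35e-05).

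Among signalling genes the retinoid list stood high: 7 of 9 rose and 1 fell, with a median of 1.21. RBP4, the retinol carrier, read 0.839 and 7.59 FPKM at day 0 and 33.1 and 83.4 FPKM at day 4 (3.76 ± 0.28, adjusted p = 7.87e-09). ALDH1A1, which makes retinoic acid, read 20.8 and 58 FPKM at day 0 and 232 and 439 FPKM at day 4 (3.16 ± 0.26, adjusted p = 1.82e-08). STRA6, the RBP4 receptor, rose by 1.51 ± 0.17, and DHRS9, which oxidises retinol, fell (-1.36 ± 0.24). Line 4 held more RBP4, ALDH1A1 and STRA6 than line 1 on both days.

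Of 17 genes of the EGF receptor family and its ERK feedback 6 rose and 4 fell (median 0.13), and under quantile normalization 3 rose and 5 fell. ERBB3 read 12.9 and 26 FPKM at day 0 and 80.2 and 99.9 FPKM at day 4 (2.22 ± 0.17, adjusted p = 1.13e-08) and ERBB2, its kinase partner, rose by 1.81 ± 0.16. The ligand EREG and PHLDA1 changed by -1.15 ± 0.23 and -0.78 ± 0.21. Wnt feedback genes rose in 4 of 9 cases and fell in 0, AXIN2 by 1.56 ± 0.17, ZNRF3 by 1.00 ± 0.19, RNF43 by 0.86 ± 0.17 and TCF7 by 0.53 ± 0.20.

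YAP and TAZ targets went both ways, with 4 of 15 higher, 5 lower and a median of -0.11. F3, tissue factor, read 625 and 711 FPKM at day 0 and 154 and 189.6 FPKM at day 4 (-1.96 ± 0.20, adjusted p = 2.62e-07) and CYR61, a matricellular factor, read 811 and 418 FPKM at day 0 and 245 and 162 FPKM at day 4 (-1.54 ± 0.28, adjusted p = 0.000135), whereas PTPN14 and CRIM1 rose by 1.23 ± 0.14 and 1.30 ± 0.21. CTGF did not pass (-0.11). Genes of TGF-beta and BMP signalling rose in 3 of 15 cases and fell in 7. INHBA and INHBB, the chains of activins A and B, moved in opposite directions, INHBA changing by -2.22 ± 0.24 and INHBB by 1.95 ± 0.21. NOG and BMP4, a BMP antagonist and a BMP, changed by -1.91 ± 0.21 and -1.71 ± 0.20.

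NF-kB targets fell in 8 of 14 cases and rose in 0 (median -0.71). CCL2, a monocyte chemokine, read 119 and 23.1 FPKM at day 0 and 18.1 and 1.19 FPKM at day 4 (-3.06 ± 0.52, adjusted p = 6.47e-05), with line 4 below line 1 on both days. CSF2 and CCL20 changed by -1.73 ± 0.30 and -2.82 ± 0.57. Of 14 p53 targets 5 rose and 4 fell, against 3 and 4 under quantile normalization. TIGAR, a fructose bisphosphatase, fell by the largest amount (-2.12 ± 0.18).

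**Figure D3:**
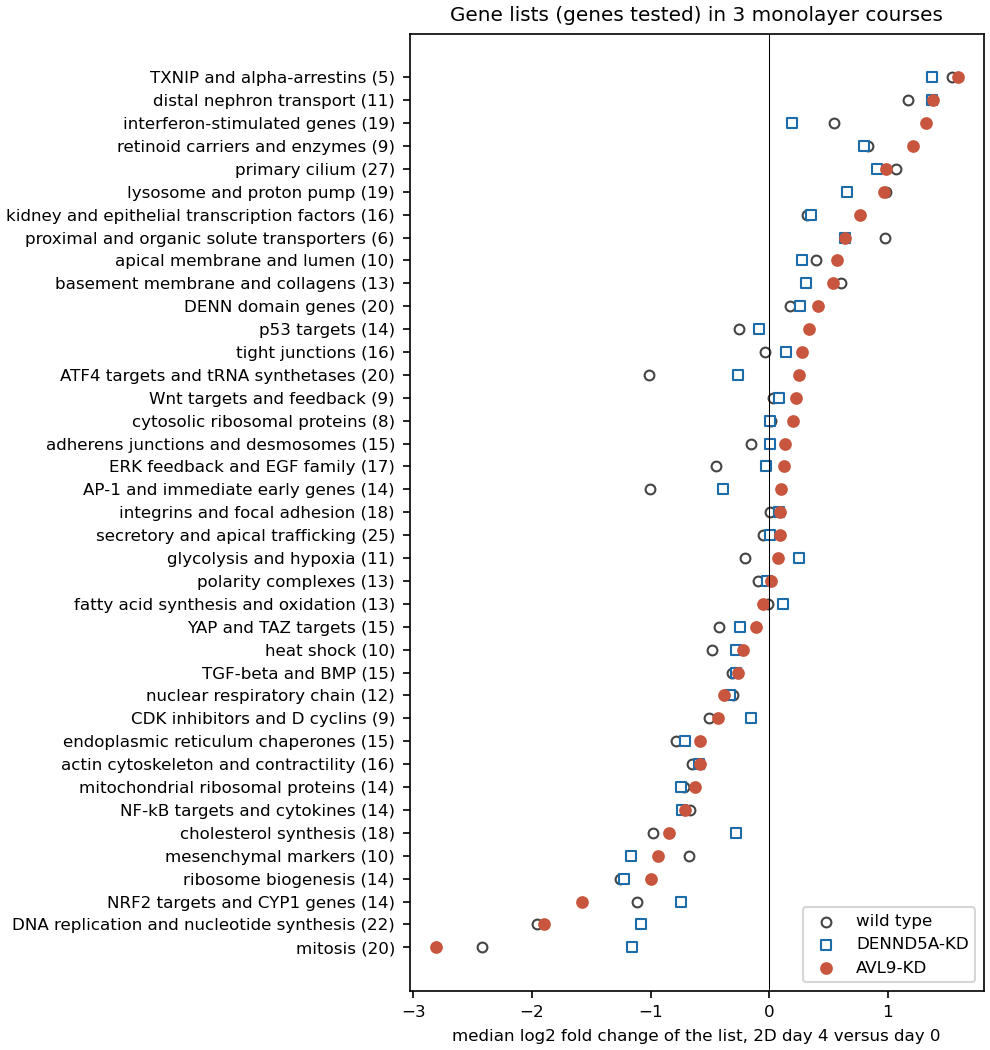
Median log2 fold change from day 0 to 2D day 4 of 39 gene lists (numbers of genes tested in brackets) in AVL9-KD cells (filled red), wild type (open circles) and DENND5A-KD cells (blue squares); lists are ordered by the AVL9-KD value. In AVL9-KD the medians run from -2.81 for mitosis to 1.59 for TXNIP and alpha-arrestins, and the 3 courses stand furthest apart for mitosis, ATF4 targets, interferon-stimulated genes and immediate early genes.

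Interferon-stimulated genes rose as well. Of 19 such genes, which code for antiviral proteins, 15 rose and 0 fell, with a median of 1.32. The median was 0.69 in line 1 and 1.67 in line 4, and 9 of the 15 were still called when either library of line 4 was left out. IFIT2, which binds viral RNA, read 1.1 and 0.206 FPKM at day 0 and 6.01 and 3.8 FPKM at day 4 (1.87 ± 0.12, adjusted p = 1.54e-09). OASL, a relative of the oligoadenylate synthetases, read 0.0681 and 0.191 FPKM at day 0 and 3.48 and 2.72 FPKM at day 4 (1.86 ± 0.15, adjusted p = 1.47e-08). MX1, a dynamin-like antiviral GTPase, read 1.89 and 1.63 FPKM at day 0 and 23.2 and 64.4 FPKM at day 4 (3.85 ± 0.43, adjusted p = 6.7e-07). The days did not overlap in these genes, and the 2 lines changed by 3.07 and 4.64 for MX1. BST2, tetherin, rose by 1.87 ± 0.21. IFIH1 (0.10), OAS1 (0.57) and OAS2 (0.41) were among those that did not pass.

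Targets of ATF4, the transcription factor of the amino acid and stress response, are read here together with tRNA synthetases. Of 20, 9 rose and 2 fell, with a median of 0.25. SESN2, an inhibitor of mTORC1, read 3.59 and 2.36 FPKM at day 0 and 17.8 and 16.6 FPKM at day 4 (2.21 ± 0.14, adjusted p = 2.09e-09). VLDLR, a lipoprotein receptor, read 0.973 and 1.18 FPKM at day 0 and 13.9 and 12.4 FPKM at day 4 (2.77 ± 0.23, adjusted p = 2.08e-08). DDIT4, another mTORC1 inhibitor, read 7.69 and 5.32 FPKM at day 0 and 36.3 and 23.6 FPKM at day 4 (2.03 ± 0.31, adjusted p = 1.93e-05). In these 3 genes both lines rose by about the same amount. DDIT3, the factor CHOP, rose from low levels (0.88 ± 0.14). The list median was 0.56 in line 1 and -0.01 in line 4. The 2 that fell were the synthetases GARS (-0.65) and MARS (-0.53).

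Of 14 AP-1 and immediate early genes, which respond to serum and stress within minutes, 3 rose and 4 fell, with a median of 0.10, and under quantile normalization 6 rose and 4 fell. EGR1, a zinc finger factor, read 16.4 and 16.9 FPKM at day 0 and 104 and 119.7 FPKM at day 4 (2.68 ± 0.24, adjusted p = 4.28e-08), and FOS, the AP-1 subunit, read 21.3 and 16.3 FPKM at day 0 and 36 and 28.9 FPKM at day 4 (0.76 ± 0.22, adjusted p = 0.00639). Both were close in the 2 lines on each day. FOSL1, another AP-1 subunit, read 25.1 and 37.8 FPKM at day 0 and 5.82 and 10.5 FPKM at day 4 (-1.85 ± 0.27, adjusted p = 1.36e-05), and IER3 and KLF6 changed by -1.56 ± 0.36 and -0.72 ± 0.25. MYC fell by 0.61 on the log2 scale.

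The lines parted in a small set of genes. In the 16 genes selected for the widest gap between the 2 changes, which is a description and no test, line 4 rose far above line 1 in RIPPLY1, a transcriptional corepressor (0 and 0.0495 FPKM at day 0, 1.03 and 54.4 FPKM at day 4), and in VCAN, the matrix proteoglycan versican (4.47 and 2.49 FPKM at day 0 and 10.0 and 157 FPKM at day 4). CCL5, a T cell chemokine, read 1.95 and 0.0501 FPKM at day 0 and 2.56 and 18 FPKM at day 4. The 2 lines changed by 1.01 and 5.50 for VCAN and by 0.27 and 4.18 for CCL5. RIPPLY1, VCAN and CCL5 passed the test for the mean of the lines all the same. TAGLN, the actin-binding transgelin, went from 3.08 to 5.36 FPKM in line 1 and from 0.303 to 14.4 FPKM in line 4.

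In the other direction, EFEMP1, the matrix protein fibulin-3, read 0.821 and 0.119 FPKM at day 0 and 17.9 and 1.32 FPKM at day 4. FGFBP1, a carrier of fibroblast growth factors, read 48.3 and 92 FPKM at day 0 and 32.4 and 9.41 FPKM at day 4, and IGFL3, a small secreted protein, read 67.2 and 108 FPKM at day 0 and 68.6 and 18.7 FPKM at day 4. Line 1 gained more EFEMP1 and kept more FGFBP1 and IGFL3 than line 4. FABP3, a fatty acid binding protein, changed by -1.12 in line 1 and -3.45 in line 4. For TIMM13 and SPTSSA, short genes with values that differed widely between libraries of 1 group, the values were erratic: TIMM13 read 397 and 75.2 FPKM at day 0 and 58.3 and 119.7 FPKM at day 4 and SPTSSA read 112 and 0 FPKM at day 0 and 13.4 and 0 FPKM at day 4. The genes with line 1 furthest above line 4 were the entry Xist_exon4, C17orf89 and MT1E. Their values are not described here, nor are those of UBE2QL1, which met the rule as well.

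The first comparison asked where the AVL9-KD course differed from that of wild type, with which it shares no library. Wild-type cells changed 7018 of the same genes (64%), 3455 higher (31.5%) and 3563 lower (32.5%). Of the AVL9-KD calls 5497 were called in wild type in the same direction, which is 85.8% of the AVL9-KD and 78.3% of the wild-type calls, and 25 were called in opposite directions. The difference between the courses passed the test for 244 genes (2.22%), 209 of them higher in the AVL9-KD course (1.91%) and 35 lower (0.319%). Of the 209, 94 rose in both, 66 rose in AVL9-KD and did not pass in wild type, and 29 fell in wild type and did not pass in AVL9-KD. The share of higher calls, 85.7%, depended on the scaling and the filter. It was 180 of 281 (64.1%) under quantile normalization and 177 of 273 (64.8%) under median-ratio scaling. The main filter asks for expression in AVL9-KD libraries only. With a filter over the AVL9-KD and wild-type groups 199 were higher and 46 lower. With no expression filter 256 were higher and 89 lower (74.2% higher).

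The number of calls rested on few libraries. It was 133 without the line number as a block, 61 when either library of AVL9-KD line 1 was left out and 160 without wild-type 2D day 4 replicate 3. Without the 5 wild-type libraries that stood apart it was 333, with 297 higher and 36 lower. Wild type then had 6569 calls, 5369 genes were called in the same direction in both courses and 38 in opposite directions.

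Of the genes named, EGR1 and FOS had the widest differences from the wild-type course. In wild type EGR1 read 92.4, 114, 104 and 133 FPKM at day 0 and 59.7, 65.8 and 41.8 FPKM at day 4, against 16.4 and 16.9 FPKM at day 0 and 104 and 119.7 FPKM at day 4 in AVL9-KD, a difference in course of 3.67 ± 0.30, adjusted p = 1.53e-06. For FOS, wild type read 141, 127, 155 and 179 FPKM at day 0 and 21.7, 23.1 and 17.5 FPKM at day 4 and AVL9-KD 21.3 and 16.3 FPKM at day 0 and 36 and 28.9 FPKM at day 4, a difference of 3.56 ± 0.28, adjusted p = 1.41e-06. At day 0 every AVL9-KD library lay below every wild-type library for both genes (-2.65 ± 0.21 and -2.94 ± 0.19), and at day 4 every AVL9-KD library lay above (1.02 ± 0.22, adjusted p = 0.00262, and 0.62 ± 0.20, adjusted p = 0.0298). Of the AP-1 and immediate early list 5 genes of 14 were higher in the AVL9-KD course, the others being JUNB (0.87 ± 0.20), IER2 (0.86 ± 0.22) and DUSP1 (2.13 ± 0.30), and 0 were lower. Without the 5 wild-type libraries 5 were higher too. In DENND5A-KD cells EGR1 changed by 0.79 and FOS by -0.27. The difference between the AVL9-KD and DENND5A-KD courses passed for EGR1 (adjusted p = 0.00646) and not for FOS (adjusted p = 0.102). Of the list, 1 gene was called higher in that comparison and 0 lower.

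The ATF4 list held 13 of 20 genes higher in the AVL9-KD course than in that of wild type and 0 lower. Against the DENND5A-KD course 1 of the 20 was called higher and 0 lower. The list median was 0.25 in AVL9-KD, -0.26 in DENND5A-KD and -1.01 in wild type. In DENND5A-KD 6 members rose and 7 fell, and in wild type 2 rose and 14 fell. PSAT1, of serine synthesis, read 102, 111, 105 and 116 FPKM at day 0 and 39, 42.5 and 36.7 FPKM at day 4 in wild type and 76.2 and 105 FPKM at day 0 and 193 and 142 FPKM at day 4 in AVL9-KD (2.32 ± 0.31, adjusted p = 0.000553). TRIB3, a pseudokinase induced by ATF4, read 19.3, 11.2, 11.9 and 10.7 FPKM at day 0 and 2.44, 4.45 and 1.35 FPKM at day 4 in wild type and 12.9 and 10.4 FPKM at day 0 and 20.8 and 10.5 FPKM at day 4 in AVL9-KD (2.31 ± 0.42, adjusted p = 0.00802). CHAC1, which degrades glutathione, read 5.75 and 4.56 FPKM at day 0 and 26.7 and 14.8 FPKM at day 4 in AVL9-KD and 25.3, 7.37, 7.39 and 9.6 FPKM at day 0 and 4.54, 8.28 and 3.03 FPKM at day 4 in wild type (2.77 ± 0.52, adjusted p = 0.00802). For PSAT1 and TRIB3 the 2 groups overlapped or lay close at day 0, and at day 4 every AVL9-KD library stood above every wild-type library. The other called members were ATF4, DDIT3, DDIT4, SESN2, SLC7A11, MTHFD2, SLC7A5, SHMT2, SARS and SLC3A2. Without line 1, 1 of the 20 was called, and without the 5 wild-type libraries 11 were. FGF21, a stress-induced hormone, was also higher (2.39 ± 0.37, adjusted p = 0.00226), with 5.74 and 8.88 FPKM in AVL9-KD and 0.241 to 1.26 FPKM in wild type at day 4.

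EGF, PRR15L and CLDN2 rose in both courses and, on the log2 scale, further in AVL9-KD. EGF read 8.13, 11.9, 10.7 and 14.9 FPKM at day 0 and 47.4, 47.8 and 45.5 FPKM at day 4 in wild type (2.41 ± 0.24, adjusted p = 2.11e-05), and at day 4 its AVL9-KD values of 38.2 and 60.3 FPKM lay on either side of all 3 wild-type values. The 4 wild-type day 0 values all exceeded those of AVL9-KD (difference -2.37 ± 0.17). PRR15L read 15.8, 10.6, 6.85 and 14.6 FPKM at day 0 and 60.3, 60.4 and 52 FPKM at day 4 in wild type (2.78 ± 0.35, adjusted p = 0.000382), again with the gap at day 0 (-2.71 ± 0.24). CLDN2 read 6.54, 15.5, 14.3 and 22.4 FPKM at day 0 and 106, 82.5 and 74 FPKM at day 4 in wild type (2.22 ± 0.43, adjusted p = 0.00928) and AVL9-KD was below wild type on both days (-3.82 ± 0.30 and -1.61 ± 0.31). CLDN2 was barely detected in the seeded AVL9-KD cells, so that its difference in course depends on the pseudocount of 1. The other tight junction genes with a higher AVL9-KD course were CLDN16 (1.22 ± 0.31) and CGNL1 (0.83 ± 0.21), and 2 tight junction genes were called without the 5 wild-type libraries.

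DTX4, a Deltex ubiquitin ligase, read 0.36 and 0.293 FPKM at day 0 and 2.85 and 16.4 FPKM at day 4 in AVL9-KD and at most 0.283 FPKM in any wild-type library of the 2 days (2.41 ± 0.38, adjusted p = 0.00265). SNORA14, a small nucleolar RNA gene, was listed at 0 in all 7 wild-type and both day 0 AVL9-KD libraries and read 6.79 and 12.2 FPKM at day 4 (adjusted p = 0.0498). That call was lost with any 1 library left out. DTX4 and SNORA14 passed the filter through their day 4 AVL9-KD libraries alone.

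Genes lower in the AVL9-KD course were fewer among those that passed the filter on AVL9-KD libraries. MSC, the helix-loop-helix repressor musculin, read 13.6 and 2.61 FPKM at day 0 and 0.82 and 0 FPKM at day 4 in AVL9-KD and 0 to 0.0336 FPKM in wild type (-2.42 ± 0.21, adjusted p = 2.15e-06). STEAP2, a metalloreductase, read 31.2 and 16.8 FPKM at day 0 and 8.8 and 7.76 FPKM at day 4 in AVL9-KD and 2.36, 2.05, 1.16 and 2.06 FPKM at day 0 and 3.69, 1.98 and 2.75 FPKM at day 4 in wild type (-1.75 ± 0.30, adjusted p = 0.00531). In both genes the seeded AVL9-KD cells stood above wild type and came down by day 4. MSC passed the filter through its day 0 AVL9-KD libraries alone. UBASH3B, a phosphatase of receptor signalling, also had a lower course (-1.17 ± 0.22, adjusted p = 0.00802). RASL11A, a Ras-like GTPase, read 1.39, 1.27, 1.43 and 1.28 FPKM at day 0 and 9.59, 5.54 and 7.44 FPKM at day 4 in wild type and 2.51 and 3.41 FPKM at day 0 and 3.18 and 2.97 FPKM at day 4 in AVL9-KD (-1.79 ± 0.31, adjusted p = 0.00601). NTN4, netrin 4, and the organic cation transporter SLC22A2 rose in both and less in AVL9-KD (adjusted p = 0.0384 and 0.0498), and both calls were lost without the 5 wild-type libraries. Of the 16 genes named for the size of this difference, 7 lost their call without AVL9-KD line 1 and 4 without line 4.

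In 19 genes the difference passed and the 2 courses passed in opposite directions, among those with a symbol of their own ADRA2A, ATF4, CHAC1, EGR1, FOS, GADD45A, HERC6, KRT19, MID1IP1, PAQR8, PCK2, PPFIBP1, PSAT1, PSD4, SCEL, SRBD1 and ZNF608. All 17 rose in AVL9-KD and fell in wild type. In DENND5A-KD cells ATF4 (0.53, adjusted p = 0.0282), CHAC1 (1.06, adjusted p = 0.0415) and EGR1 (0.79, adjusted p = 0.0109) rose as well. Of the 17, only EGR1 passed the test of a difference from the DENND5A-KD course (adjusted p = 0.00646). The count of 19 was 33 without the 5 wild-type libraries. ADRA2A, an adrenergic receptor, changed by 1.09 in AVL9-KD and -0.85 in wild type, and SCEL, a cornified envelope precursor, by 0.71 and -0.71.

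**Figure D4:**
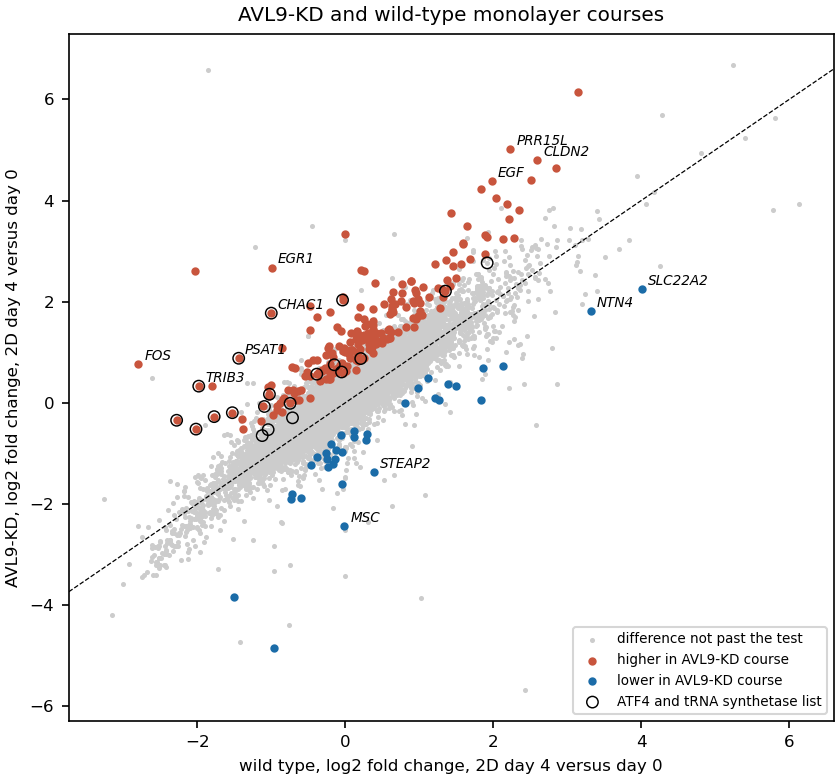
Log2 fold change from day 0 to 2D day 4 in wild type (x axis) and in AVL9-KD cells (y axis), each point 1 of the 10967 genes tested; the dashed line marks equal courses, red points are the 209 genes higher and blue points the 35 genes lower in the AVL9-KD course, and rings mark the ATF4 and tRNA synthetase list. EGR1 and FOS lie upper left, since they rose in AVL9-KD (2.68 and 0.76) and fell in wild type (-0.99 and -2.80).

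The second comparison set the AVL9-KD course against that of DENND5A-KD, again with no library in common. DENND5A-KD cells changed 5171 genes (47.2%), 2408 higher (22%) and 2763 lower (25.2%). Of these, 4516 were called in AVL9-KD in the same direction (70.5% of the AVL9-KD and 87.3% of the DENND5A-KD calls) and 7 in the opposite one. The difference passed for 258 genes (2.35%), 125 higher (1.14%) and 133 lower (1.21%) in the AVL9-KD course. The median difference over all genes was 0.12, which became 0.02 under quantile normalization and 0.01 under median-ratio scaling. The higher calls then went from 48.4% to 110 of 350 (31.4%) and 104 of 344 (30.2%). Fitted on the 10 knockdown libraries alone, 4 genes passed. The count was 57 when either library of AVL9-KD line 4 was left out, 8 and 10 without the day 0 or day 4 library of DENND5A-KD line 1, and 93 without the day 0 library of DENND5A-KD line 2.

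Of the 133 lower genes, 111 fell in both courses, and mitosis genes were prominent. The difference was called lower for 16 of 20 mitosis and 9 of 22 replication genes. Against wild type 0 genes of either list were called, and all 20 and all 22 fell in wild type too. The medians of the 2 lists were -2.81 and -1.90 in AVL9-KD, -2.42 and -1.96 in wild type and -1.16 and -1.08 in DENND5A-KD. BUB1, a spindle checkpoint kinase, read 39.3 and 39 FPKM at day 0 and 24.4 and 14.6 FPKM at day 4 in DENND5A-KD and 43.6 and 44.5 FPKM at day 0 and 5.54 and 1.75 FPKM at day 4 in AVL9-KD (-2.40 ± 0.40, adjusted p = 0.00529). MKI67, the proliferation marker Ki-67, read 31 and 24.7 FPKM at day 0 and 20.5 and 10.4 FPKM at day 4 in DENND5A-KD and 29.4 and 32.7 FPKM at day 0 and 4.1 and 1.96 FPKM at day 4 in AVL9-KD (-2.17 ± 0.43, adjusted p = 0.0104). TOP2A, topoisomerase II, read 51.5 and 48.6 FPKM at day 0 and 37.3 and 24.5 FPKM at day 4 in DENND5A-KD and 63.1 and 57.3 FPKM at day 0 and 10.7 and 4.55 FPKM at day 4 in AVL9-KD (-2.22 ± 0.40, adjusted p = 0.00646). The day 0 levels of the 2 knockdowns were close for these genes, and at day 4 every DENND5A-KD library was above every AVL9-KD library. Over the mitosis list the mean log2(FPKM + 1) at day 4 was 2.77 and 2.08 in AVL9-KD lines 1 and 4, 2.44 to 3.02 in wild type and 4.32 and 3.72 in DENND5A-KD lines 1 and 2. The mitosis count of 16 was 0 without AVL9-KD line 4, without either library of DENND5A-KD line 1 and on the knockdown libraries alone, and 8 without the day 0 library of DENND5A-KD line 2.

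IL1RL1, the interleukin-33 receptor, fell in AVL9-KD (26 and 22.4 FPKM at day 0 and 3.78 and 2.07 FPKM at day 4), while DENND5A-KD read 6.86 and 7.32 FPKM at day 0 and 17.8 and 8.52 FPKM at day 4 (-3.44 ± 0.46, adjusted p = 0.00143). S100A4, a calcium-binding protein, read 0.832 and 62.6 FPKM at day 0 and 0.568 and 20.2 FPKM at day 4 in AVL9-KD and the 2 lines differed far more from each other than the days did (-2.52 ± 0.62, adjusted p = 0.0376). The small RNA gene RNase_MRP read 9.65 and 1.71 FPKM at day 0 and 0.689 and 2.24 FPKM at day 4 in AVL9-KD, with the lines going opposite ways (-2.88 ± 0.63, adjusted p = 0.0191).

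Among the higher genes, interferon-stimulated genes were 7 of 19. MX1 read 6.76 and 5.23 FPKM at day 0 and 11 and 17.8 FPKM at day 4 in DENND5A-KD (2.74 ± 0.61, adjusted p = 0.0212), RSAD2, viperin, read 21.9 and 23.8 FPKM at day 0 and 7.2 and 11.8 FPKM at day 4 against 8.32 and 7.78 FPKM at day 0 and 14.1 and 32.9 FPKM at day 4 in AVL9-KD (2.54 ± 0.56, adjusted p = 0.0202), and OASL differed by 1.57 ± 0.21. Outside that list, DDX60, an RNA helicase, differed by 2.12 ± 0.33 and ISG20, an exonuclease, by 2.02 ± 0.49. The seeded DENND5A-KD cells held more MX1 and RSAD2 than the seeded AVL9-KD cells, and at day 4 the order was reversed. Against wild type, a comparison that shares the AVL9-KD libraries with this one, 5 of the 19 were called higher: CMPK2, IFIT1, DDX58, OASL and IFIT2. That count was 7 without the 5 wild-type libraries. The mean log2 level of the list at day 4 was 3.92 and 4.30 in AVL9-KD, 3.35 and 3.53 in DENND5A-KD and 2.72 to 3.11 in wild type.

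TAGLN read 5.24 and 4.56 FPKM at day 0 and 0.394 and 1.44 FPKM at day 4 in DENND5A-KD and 3.08 and 0.303 FPKM at day 0 and 5.36 and 14.4 FPKM at day 4 in AVL9-KD (3.78 ± 0.60, adjusted p = 0.00357), and it also differed from wild type (2.13 ± 0.53, adjusted p = 0.0426). KRT14, a basal keratin, read 4.82 and 5.39 FPKM at day 0 and 4.64 and 5.17 FPKM at day 4 in AVL9-KD and 4.57 and 6.3 FPKM at day 0 and 0.055 and 0.125 FPKM at day 4 in DENND5A-KD (2.50 ± 0.41, adjusted p = 0.00487). EGF again rose further in AVL9-KD (2.02 ± 0.28, adjusted p = 0.00143). DHRS2, a short-chain reductase, read 146 and 67.3 FPKM at day 0 and 121 and 44.3 FPKM at day 4 in AVL9-KD and 46.3 and 87.7 FPKM at day 0 and 4.03 and 15.6 FPKM at day 4 in DENND5A-KD (2.39 ± 0.60, adjusted p = 0.0389). Of the 16 genes named for the size of this difference, 11 lost their call without AVL9-KD line 4 and 15 on the knockdown libraries alone.

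**Figure D5:**
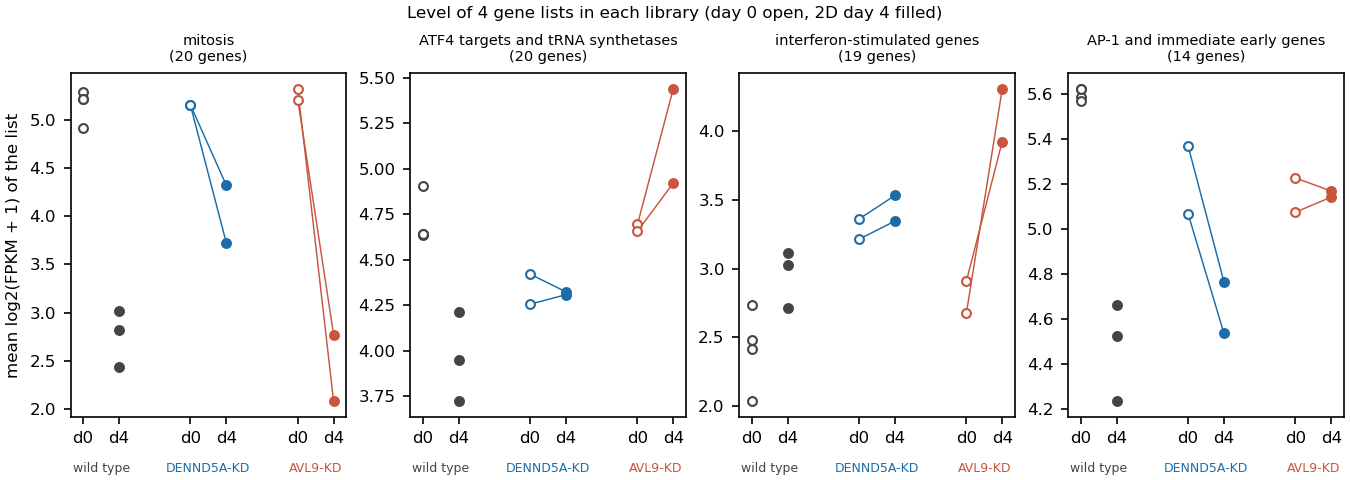
Mean log2(FPKM + 1) of 4 gene lists (y axis, a separate scale in each panel that does not start at 0) in each wild-type, DENND5A-KD and AVL9-KD library at day 0 (open) and 2D day 4 (filled); lines join libraries of the same knockdown line. The AVL9-KD lines end lowest for mitosis in line 4 (2.08), and highest for ATF4 targets (5.44 and 4.92), interferon-stimulated genes (3.92 and 4.30) and immediate early genes (5.17 and 5.14).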

How the data were processed

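RNA of MDCKII cells was sequenced from libraries of a stranded mRNA kit, per the labels' protocols. The authors deposited 1 table a library with FPKM per Ensembl gene. HISAT2 2.1.0, Cufflinks 2.2.1 and the dog assemblies canFam3 and CanFam3.1 are named in the submitters' processing notes. The files hold no counts and the low values fit no common step, so read depth, and with it the precision of low values, is unknown. No coordinates are given, since the gene table used to look up symbols is of another assembly. No pair of libraries held identical values (0 pairs). Among the 5809 genes averaging 10 FPKM or more over the 4 libraries, 24 had a listed value of 0, and an exact 0 can be a failed estimate.

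Values were taken as log2(FPKM + 1), and a gene was kept where 2 or more of the 4 AVL9-KD libraries reached 1 FPKM. One limma 3.58.1 model (trend, empirical Bayes, R 4.3.3) was fitted to all 29 libraries, with a mean for each group and a term for each knockdown line, leaving 14 residual degrees of freedom and a prior of 4.36. The line numbers, which the labels give for both days, pair the days; across genes the deviations of the lines at day 0 and day 4 correlated with Pearson r = 0.42. P-values are two-sided and Benjamini-Hochberg adjusted over all 10967 genes, with calls at 0.05. Differences between courses are interaction contrasts of that model. The procedure was tested on simulated data.

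Named genes are the 14 largest called changes in each direction with a symbol, 5 FPKM or more on average on the higher day and no overlap between days, up to 4 members of each list by adjusted p, the DENN domain genes, the 8 largest called differences in each direction for each interaction, and the 8 genes a side in which the lines differed most. Other names were chosen after their values were seen. Of 794 list entries, 80 had no symbol of their own in the files. The members and lists were chosen with earlier results of these data known. Alternatives were other scalings (quantile, median-ratio), a pseudocount of 0.1, other filters (none, and 5 FPKM), fewer libraries, a batch term, no line block, and each library left out in turn. After the data were seen, a filter over all libraries of each comparison was added. Promoter sequences were not used here.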

Additional observations from a re-analysis of the deposited data

Results flagged for a closer look

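The course of 244 genes differed between AVL9-KD and wild type, and that of 258 genes between AVL9-KD and DENND5A-KD, each by a test of the difference itself (limma, Benjamini-Hochberg adjusted). All values here are such differences on the log2(FPKM + 1) scale, AVL9-KD minus the other course.

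Against wild type the largest higher values were 3.67 for EGR1, 3.56 for FOS, 3.34 for SNORA14, 2.78 for PRR15L, 2.77 for CHAC1, 2.41 for DTX4, 2.41 for EGF and 2.39 for FGF21. SNORA14 was listed at 0 outside the day 4 AVL9-KD libraries. The largest lower values were -2.42 for MSC, -2.33 for SPINK6, -1.79 for RASL11A, -1.76 for SLC22A2, -1.75 for STEAP2, -1.51 for NTN4, -1.17 for UBASH3B and -1.11 for PM20D2. SLC22A2 was listed at 0 in the seeded AVL9-KD cells, so that its difference depends on the pseudocount of 1.

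Against DENND5A-KD the largest higher values were 3.78 for TAGLN, 2.74 for MX1, 2.54 for RSAD2, 2.50 for KRT14, 2.39 for DHRS2, 2.12 for DDX60, 2.02 for ISG20 and 2.02 for EGF. The largest lower values were -3.44 for IL1RL1, -2.88 for the small RNA gene RNase_MRP, -2.52 for S100A4, -2.40 for BUB1, -2.32 for CCNA2, -2.22 for TOP2A, -2.17 for MKI67 and -2.16 for CCNB2.

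In 3 of the genes named for a difference from wild type, 1 of the 4 wild-type day 0 libraries stood far from the others. The gap to the nearest library divided by the range was 0.876 for CHAC1, where replicate 1 read 25.3 FPKM and the others 7.37 to 9.6 FPKM. For DTX4 and MSC the ratio was 1 because a single library was above 0, at levels under 0.3 FPKM. All 3 ratios exceed Dixon's critical value, which chance exceeds in about 1 of 20 groups of continuous values. That rate does not hold for DTX4 and MSC, where the values of 0 fix the ratio at 1.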

How the results depend on the processing

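No gene named for the size of its course, or of a difference between courses, changed sign there under the alternatives run. No AVL9 difference did either. The other named genes were not followed singly through the alternatives. The balance of higher and lower calls in the course turned under quantile normalization (3239 and 3346), as did that of the immediate early (6 and 4), EGF and ERK (3 and 5) and p53 (3 and 4) lists. The count of genes called in the AVL9-KD course lay between 4372 and 5020 with 1 library left out. Against wild type the count of 244 was 133 without the replicate block and 61 to 346 with 1 library left out, and the 13 ATF4 genes became 1 to 13. Against DENND5A-KD the count of 258 was 4 on the 10 knockdown libraries alone and 8 to 326 with 1 library left out, and the 16 mitosis genes became 0 on the knockdown libraries alone and 0 to 18 with 1 library left out. The 15 interferon-stimulated genes called in the course became 9 to 15. Leaving out 1 library of a pair leaves the other line to give the course, so these fits rest on fewer samples. The AVL9 change from day 0 to day 4 passed the test on the 10 knockdown libraries alone (-0.31, adjusted p = 0.0424), under quantile normalization (-0.49, adjusted p = 0.000501), under median-ratio scaling (-0.33, adjusted p = 0.00707) and with a pseudocount of 0.1 (-0.36, adjusted p = 0.0434), and ranged from -0.45 to -0.16 with 1 library left out; the cause was not tested. Without the replicate block, 4 of 16 genes named against wild type and 3 of 16 named against DENND5A-KD lost their call, and 0 of the 28 named for the course. Of the alternative values of single genes named for size, 837 kept their side of the threshold and 157 did not. The losses were uneven: 387 were kept and 4 lost for the course. For the difference from wild type 252 were kept and 64 lost, and for that from DENND5A-KD 198 were kept and 89 lost. Depth is unknown and low FPKM values carry no stated error.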
